A study of Zea mays with 10 samples.

Results

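The miRNA loci described here are the precursors of the MIR397, MIR398, MIR408 and MIR528 families, tied to copper, and of MIR395, tied to sulfate. They were taken as all features whose ID begins with zma-MIR395, zma-MIR397, zma-MIR398, zma-MIR408 or zma-MIR528 in the prophase I tables, with no measured value in the rule. This gave 6 loci: MIR408b, MIR398a, MIR398b, MIR397b, MIR528a and MIR395c. The anther table listed all 6 among its 25460 features and 48 miRNA loci. The germ cell table listed 5 of them, all but MIR397b, among its 22786 features and 26 miRNA loci. The premeiotic table listed 0 miRNA loci, so premeiotic anthers do not enter the results.

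The study asked which maize transcripts respond to short phased small RNAs, which grass anthers make in large amounts. Whole anthers and isolated male germ cells were collected at prophase I of meiosis from B73, the inbred line of the maize reference genome, and from ms28, a male-sterile mutant. Each of these 4 groups had 2 libraries, and no treatment is given in the labels. The sources used here do not say whether ms28 was bred into B73, which plants grew in the field or in the greenhouse, or how many plants a library pools, so an ms28 difference may include other differences between the lines. No label states that a group's libraries derive from different plants, and the p-values reflect only the spread among the libraries, possibly a technical one. The reference gene table matched 0 of the 25795 gene models, so the tissue labels could not be checked against the 25 marker genes chosen for anther wall and meiocytes, and target genes of the miRNAs could not be looked up by name.

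A plant miRNA is cut from a hairpin in a longer precursor transcript, and the mature miRNA guides an Argonaute protein to cleave matching mRNAs. The values below are RNA-seq levels of the precursor loci and not of mature miRNAs. In Arabidopsis, low copper raises MIR397, MIR398 and MIR408 through the transcription factor SPL7, and their targets are mRNAs of copper proteins that the plant can spare. MIR398 targets copper/zinc superoxide dismutases, MIR397 targets laccases and MIR408 targets plantacyanin and laccases. MIR528 belongs to monocots and targets copper oxidases. MIR395 is raised by sulfate shortage and targets ATP sulfurylases, which activate sulfate, and a sulfate transporter.

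All values are read as TPM, a share of a library's RNA scaled by feature length. Levels of different loci are set side by side on that scale only, and shared reads can leave the level of a single locus uncertain. The columns of both prophase I tables summed to between 99.1 and 99.4% of the total that TPM values add up to by definition, and depth per library is unknown. The median feature stood between 4.45 and 8.27 TPM across the 8 libraries. The 6 loci together held 430 and 193 TPM in the B73 anther libraries (replicates 1 and 2), 389 and 245 TPM in the ms28 anther libraries, 28.4 and 80.7 TPM in the B73 germ cell libraries and 41.4 and 31.6 TPM in the ms28 germ cell libraries.

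**Figure D1:**
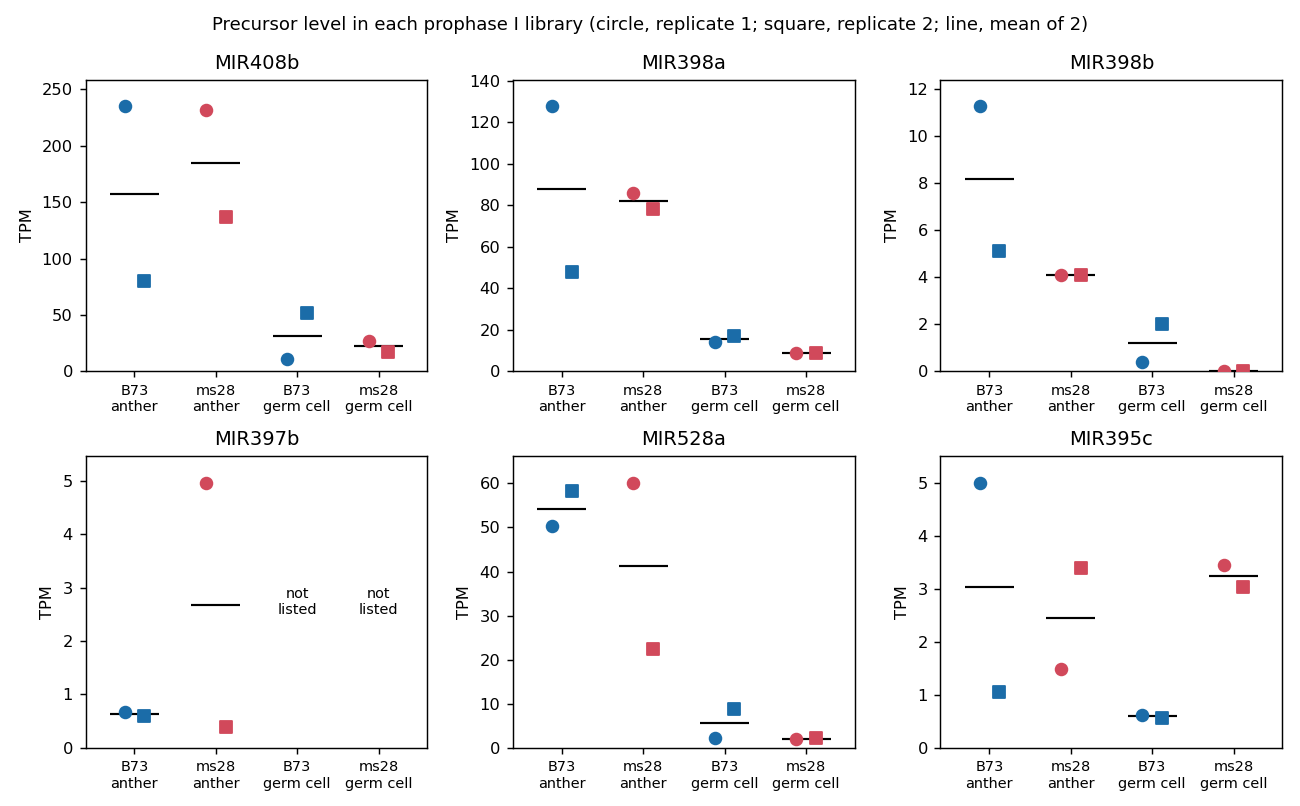
Level of each precursor (y axis, TPM, linear from 0, a scale per panel) in each prophase I library, grouped by line and tissue, with circles for replicate 1, squares for replicate 2 and lines for the mean of 2. MIR408b, MIR398a and MIR528a stood higher in all 4 anther libraries than in all 4 germ cell libraries, whereas MIR395c stood at 3.03 to 3.45 TPM in ms28 germ cells.

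MIR408b, of the plantacyanin-targeting family, was the most abundant of the 6 loci in 7 of the 8 libraries. It stood at 235 and 80.0 TPM in B73 anthers and at 232 and 137 TPM in ms28 anthers. In germ cells it stood at 11.1 and 52.1 TPM in B73 and at 27.1 and 17.6 TPM in ms28. Every anther library was thus above every germ cell library, while the lines overlapped in both tissues. MIR408b lay between percentiles 92.3 and 97.6 of all features in anthers and between 60.8 and 85.7 in germ cells.

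MIR398a came next in anthers, except in B73 anther replicate 2, where MIR528a was above it. It stood at 128 and 48.0 TPM in B73 anthers and at 86.2 and 78.2 TPM in ms28 anthers. In germ cells it stood at 14.0 and 17.1 TPM in B73 and at 9.04 and 8.83 TPM in ms28. The lines overlapped in anthers, and both ms28 germ cell libraries were below both B73 germ cell libraries. The other locus of this family, MIR398b, was lower throughout, at 11.3 and 5.13 TPM in B73 anthers, 4.11 and 4.12 TPM in ms28 anthers and 0.395 and 2.02 TPM in B73 germ cells. In ms28 germ cells both libraries list it at 0. Its 4 groups did not overlap, and the share of all features with 4 separate groups was not computed.

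MIR528a, of the monocot family, stood at 50.3 and 58.3 TPM in B73 anthers and at 60.2 and 22.4 TPM in ms28 anthers. In germ cells it stood at 2.26 and 8.88 TPM in B73 and at 1.90 and 2.17 TPM in ms28. The ms28 anther libraries enclosed the B73 ones, and both ms28 germ cell libraries were below both B73 germ cell libraries. Its percentile was between 81.1 and 91.6 in anthers and between 27.9 and 55.7 in germ cells.

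MIR397b, of the laccase-targeting family, was barely present. It stood at 0.670 and 0.600 TPM in B73 anthers and at 4.97 and 0.390 TPM in ms28 anthers, so that 1 library of the 4 was above 1 TPM. It did not pass the filter of at least 1 TPM in 2 libraries and was not tested with the other loci.

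MIR395c, the sulfate-linked precursor, was a low locus with another pattern. It stood at 5.0 and 1.06 TPM in B73 anthers, at 1.49 and 3.39 TPM in ms28 anthers, at 0.624 and 0.555 TPM in B73 germ cells and at 3.45 and 3.03 TPM in ms28 germ cells. The ms28 germ cell libraries lay within the range of the B73 anther libraries, and both B73 germ cell libraries were below the other 6. The share of all features with B73 germ cells below all other libraries was not computed.

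By mean level, the order for MIR398a, MIR398b and MIR528a was B73 anthers, ms28 anthers, B73 germ cells and ms28 germ cells. For MIR398a and MIR528a the B73 and ms28 anther libraries, which are neighbours in that order, overlapped. MIR408b had the order ms28 anthers, B73 anthers, B73 germ cells and ms28 germ cells, with overlap between the lines in each tissue. For MIR395c the order was ms28 germ cells, B73 anthers, ms28 anthers and B73 germ cells, and the first 3 overlapped.

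The first comparison asks how the precursors of isolated germ cells differ from those of whole anthers in B73. The 4 copper-linked loci tested were all lower in germ cells, and MIR395c was not called. The mean of MIR528a was 54.3 ± 5.69 TPM in anthers against 5.57 ± 4.68 TPM in germ cells (SD, n = 2 each), a ratio of 9.74. MIR398a stood at 87.9 ± 56.4 and 15.5 ± 2.25 TPM (SD, n = 2), a ratio of 5.66. For MIR408b the means were 158 ± 110 and 31.6 ± 29.0 TPM (SD, n = 2), a ratio of 4.98. MIR398b stood at 8.21 ± 4.35 and 1.21 ± 1.15 TPM (SD, n = 2), a ratio of 6.80. In each of these 4 loci both germ cell libraries were below both anther libraries, as were 49.4% of the 20892 features tested.

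On the log2(TPM + 1) scale the differences, germ cells minus anthers in B73, were -3.28 for MIR528a (SE 0.56, adjusted p = 0.0011), -2.27 for MIR398a (SE 0.39, adjusted p = 0.0011), -2.08 for MIR398b (SE 0.42, adjusted p = 0.0024) and -2.45 for MIR408b (SE 0.71, adjusted p = 0.015), from limma with Benjamini-Hochberg adjustment over all features. A feature is called at an adjusted p under 0.05. The fit called 4 of 5 loci lower and 0 higher, beside 41.2% of all features lower and 27% higher. MIR398b passed the filter through the anther libraries, its higher group, so its call in either line is no separate support for a lower level in germ cells. The median difference was -2.27 for the 5 loci, -2.01 for the 20 other miRNA loci tested and -0.36 for all features, and 15 of those 20 other loci were lower and 2 higher. MIR395c had a difference of -1.15 (95% interval -2.23 to -0.07, adjusted p = 0.058). The call of MIR408b ended without B73 anther replicate 1 (-1.67, adjusted p = 0.076) or B73 germ cell replicate 1 (-1.38, adjusted p = 0.105), and MIR395c was called without B73 anther replicate 2 (-1.92, adjusted p = 0.0019). MIR528a stayed called and differed by -2.48 without B73 germ cell replicate 1 and by -4.08 without replicate 2. MIR398a also stayed called, at -1.57 without B73 anther replicate 1 and -2.97 without replicate 2. Each tissue has a table of its own with its own filter, and the effects of tissue and table cannot be told apart. In bulk samples, fewer cells of a type and less RNA per cell cannot be told apart either.

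Relative to the median feature of each library, the differences in B73 were -2.86 for MIR528a, -1.85 for MIR398a, -1.66 for MIR398b and -2.02 for MIR408b, and all 4 stayed called. Of all features called between the tissues in B73, 39.6% were higher in germ cells as deposited and 53.8% after this centring.

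The same comparison in ms28 asks whether the tissue difference is there in the mutant as well. The same 4 loci were lower in germ cells, and MIR395c was not. The mean of MIR528a was 41.3 ± 26.7 TPM in anthers against 2.04 ± 0.187 TPM in germ cells (SD, n = 2), a ratio of 20.3. MIR398a stood at 82.2 ± 5.66 and 8.93 ± 0.146 TPM (SD, n = 2), a ratio of 9.20. MIR408b stood at 184 ± 67.0 and 22.3 ± 6.71 TPM (SD, n = 2), a ratio of 8.26. MIR398b went from 4.11 and 4.12 TPM to libraries listed at 0. Both germ cell libraries were below both anther libraries in these 4 loci, as in 34.3% of all features.

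The log2 differences in ms28, germ cells minus anthers, were -3.64 for MIR528a (SE 0.56, adjusted p = 0.00080), -3.06 for MIR398a (SE 0.39, adjusted p = 0.00035) and -2.97 for MIR408b (SE 0.71, adjusted p = 0.0073) in the limma fit. That of MIR398b was -2.35 (adjusted p = 0.0017), a size that depends on the pseudocount because germ cells are listed at 0. The call of MIR408b ended without ms28 germ cell replicate 2 (-2.68, adjusted p = 0.056), whereas MIR528a stayed called at -2.95 without ms28 anther replicate 1 and -4.33 without replicate 2. Here 21.5% of all features were called lower and 35.2% higher, and the median of all features was 0.19 against -2.97 for the 5 loci. Of the 20 other miRNA loci, 11 were lower and 3 higher, with a median of -1.40. Of all features called in ms28, 62.1% were higher in germ cells as deposited and 49.0% after centring, which left the 4 loci called at -3.92 (MIR528a), -3.34 (MIR398a), -2.63 (MIR398b) and -3.25 (MIR408b). The mean of MIR395c was 2.44 ± 1.34 TPM in ms28 anthers against 3.24 ± 0.291 TPM in ms28 germ cells (SD, n = 2), a log2 difference of 0.36 (95% interval -0.72 to 1.44, adjusted p = 0.543).

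**Figure D2:**
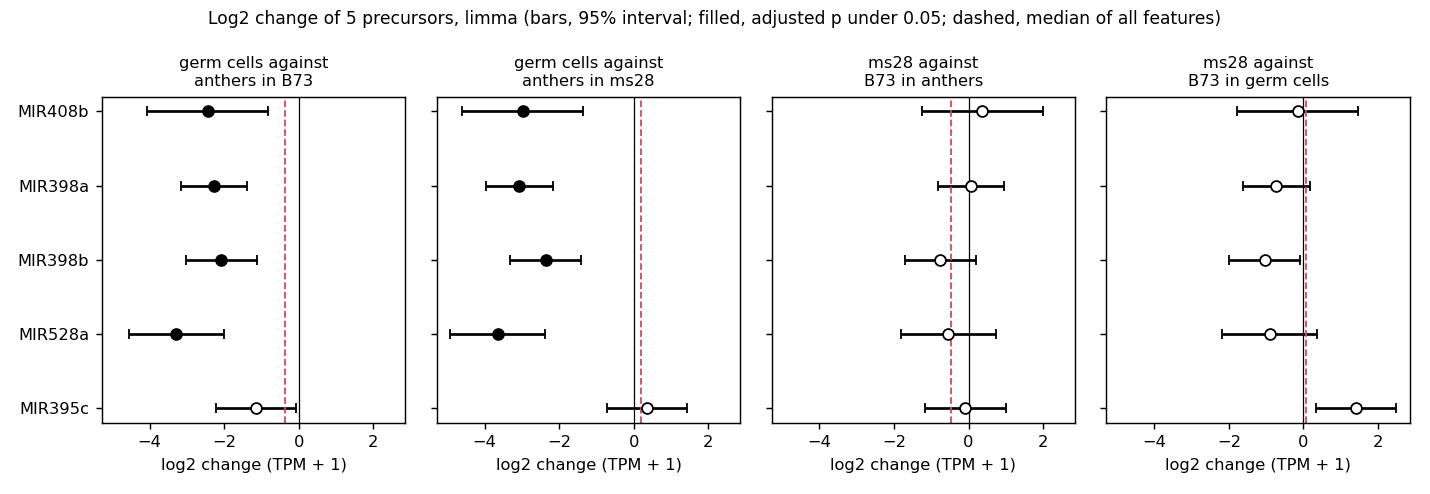
Log2 change of the 5 tested precursors on the log2(TPM + 1) scale (x axis) in 4 comparisons, with 95% intervals from the limma fit, filled points for an adjusted p under 0.05 and a dashed line at the median of all features. The 4 copper-linked loci are called lower in germ cells of both lines, and no locus is called between ms28 and B73.

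The next comparisons ask how ms28 differs from B73 within a tissue. In anthers none of the 5 tested loci was called, beside 0.507% of all features called higher and 7.31% called lower, and 0 of the 5 had an unadjusted p under 0.05. The log2 differences, ms28 minus B73, were 0.37 for MIR408b (95% interval -1.25 to 2.00), 0.06 for MIR398a (-0.83 to 0.96), -0.76 for MIR398b (-1.71 to 0.19), -0.54 for MIR528a (-1.82 to 0.73) and -0.09 for MIR395c (-1.17 to 0.99). The intervals therefore leave room for changes of more than 2-fold in at least 1 direction for 4 of the 5 loci, all but MIR398a. MIR398b was the 1 locus whose anther libraries did not overlap between the lines: both ms28 libraries were lower, as in 68.7% of all features. The median of all features was -0.48 in this comparison and that of the 5 loci -0.09. After centring of every library at its median, the differences were 0.98 for MIR408b, 0.67 for MIR398a, -0.16 for MIR398b, 0.06 for MIR528a and 0.52 for MIR395c, and none was called. For MIR397b, a fit of the anther table with no filter gave a difference of 0.82 (adjusted p = 0.418) that ran from -0.23 without ms28 anther replicate 1 to 1.87 without ms28 anther replicate 2.

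In germ cells the means of all 4 copper-linked loci were lower in ms28 and that of MIR395c was higher, but none of the 5 was called by limma, beside 9.05% of all features called higher and 5.29% called lower. MIR395c and MIR398b had an unadjusted p under 0.05 in that fit, of 0.0164 and 0.0361. The share of all features with an unadjusted p under 0.05 was not computed, here or in the other comparisons. It is at least as large as the share called, so these values are not read as a result about the loci. The mean of MIR395c was 3.24 ± 0.291 TPM in ms28 against 0.590 ± 0.0493 TPM in B73 (SD, n = 2), a ratio of 5.50. Its log2 difference was 1.41 (SE 0.47, 95% interval 0.33 to 2.49, adjusted p = 0.078). Both ms28 libraries were above both B73 libraries, as in 37.2% of all features.

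The call of MIR395c depended on which libraries set the spread. In a fit of the germ cell table alone it was called (adjusted p = 0.0054, SE 0.23, with 13.2% of all features called higher). In the joint fit without B73 anther replicate 1 or 2 the difference stayed at 1.41, with an SE of 0.28 and 0.29. Its adjusted p ran from 0.0012 to 0.300 over the alternatives of both fits. Its 2 B73 anther libraries, at 5.0 and 1.06 TPM, were further apart than those of any other group at this locus. In the germ cell table alone the locus reached 1 TPM only in the ms28 libraries, and without either of them it did not pass the filter. It entered that fit through the group where it is high, so its call there is no separate support for a higher level in ms28. A level of 0.6 TPM is low, and with depth unknown no counting error can be given for it.

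For MIR398a the log2 difference in germ cells was -0.73 (SE 0.39, 95% interval -1.63 to 0.17, adjusted p = 0.226), with a B73 mean 1.74 times the ms28 mean. The difference was the same without B73 anther replicate 1 or 2, with an SE of 0.20 in either case. In the germ cell table alone the adjusted p of MIR398a was 0.062. It was called there with centred libraries (-0.80, adjusted p = 0.045), where the share of all features called was not computed. Without B73 germ cell replicate 1 its difference was -0.87. MIR528a differed by -0.90 (95% interval -2.18 to 0.37, adjusted p = 0.287), with a B73 mean 2.74 times the ms28 mean. This value rested on which B73 germ cell library was kept: the difference was -0.10 without replicate 2 and -1.70 without replicate 1, and the latter was called in the germ cell table alone (adjusted p = 0.0032) but not in the joint fit (adjusted p = 0.102). MIR398b differed by -1.04 (adjusted p = 0.121) and was called with a pseudocount of 0.1 (adjusted p = 0.017). In these 3 loci both ms28 libraries were below both B73 libraries, as in 28% of all features.

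MIR408b gave no stable direction between the lines in germ cells. Its difference was -0.15 (95% interval -1.78 to 1.47, adjusted p = 0.903), -1.22 without B73 germ cell replicate 1 and 0.91 without B73 germ cell replicate 2. In the germ cell table alone both of these were called, in opposite directions (adjusted p = 0.014 and 0.044). The B73 germ cell libraries, at 11.1 and 52.1 TPM, enclosed the ms28 libraries.

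A difference of the ms28 effect between both tissues was tested as an interaction. None of the 5 loci was called, beside 13.9% of all features called with a positive and 0.512% with a negative difference, and 0 of the 5 had an unadjusted p under 0.05. The interaction, germ cells minus anthers, was 1.5 for MIR395c (95% interval -0.03 to 3.03, adjusted p = 0.147), and between -0.79 and -0.27 for the 4 copper-linked loci. It was 2.27 for MIR395c without B73 anther replicate 2 and -1.49 for MIR398a without B73 anther replicate 1. The median interaction of all features was 0.56. With centred libraries the values were 0.80 for MIR395c and between -1.49 and -0.97 for the 4 copper-linked loci, and none was called.

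The libraries of a group differed unevenly among the loci. In B73 anthers, replicate 1 was above replicate 2 by 4.72-fold for MIR395c, 2.94-fold for MIR408b, 2.66-fold for MIR398a and 2.2-fold for MIR398b, whereas MIR528a was 1.16-fold higher in replicate 2. On the log2(TPM + 1) scale, between 3.58 and 9.54% of all features were at least as far apart as these first 4 loci in that group. The median feature was 0.21 higher in replicate 1 on that scale.

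In B73 germ cells the order was the other way round for MIR408b, MIR398b and, by less, MIR398a. Replicate 2 was above replicate 1 by 4.68-fold for MIR408b, 3.93-fold for MIR528a and 5.12-fold for MIR398b. MIR398a was 1.23-fold higher in replicate 2 and MIR395c was 1.13-fold higher in replicate 1. The difference of MIR408b was matched or passed by 0.340% of all features in that group, that of MIR528a by 0.908% and that of MIR398b by 3.26%. The median feature differed by -0.03.

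In ms28 germ cells MIR408b was the furthest apart, at 1.54-fold, which 8.45% of all features matched or passed. In ms28 anthers MIR398a and MIR398b differed by 1.1-fold and 1.0-fold, while MIR528a was 2.68-fold and MIR397b 12.7-fold higher in replicate 1. MIR408b was 1.69-fold higher in replicate 1 and MIR395c 2.28-fold higher in replicate 2. These differences were matched or passed by 2.05% of all features for MIR528a, 0.468% for MIR397b, 8.69% for MIR408b and 7.57% for MIR395c. For MIR398a the share was 66.8% and for MIR398b 99.1%.

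**Figure D3:**
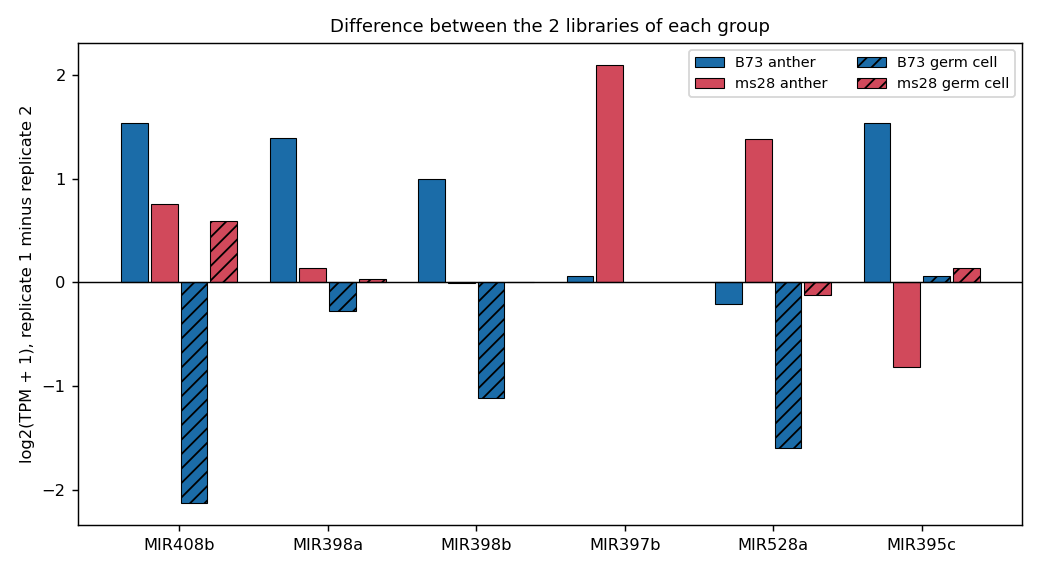
Difference between the libraries of each group for each precursor (y axis, log2(TPM + 1), replicate 1 minus replicate 2; plain bars for anthers, hatched bars for germ cells, blue for B73 and red for ms28). MIR408b runs from 1.54 in B73 anthers to -2.13 in B73 germ cells, and MIR397b is not listed in germ cells.

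Ratios between loci within a library do not change with a scaling of that library. MIR408b was 1.84 and 1.66 times MIR398a in B73 anthers and 2.69 and 1.75 times in ms28 anthers. In germ cells the ratio was 0.798 and 3.04 in B73 and 2.99 and 1.99 in ms28, so B73 germ cell replicate 1 was the 1 library of 8 with MIR398a above MIR408b. MIR408b was 4.68 and 1.37 times MIR528a in B73 anthers, 3.85 and 6.11 times in ms28 anthers, 4.92 and 5.86 times in B73 germ cells and 14.2 and 8.10 times in ms28 germ cells. The ms28 germ cell ratios were the highest of the 8.

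Between the MIR398 loci, MIR398a was 11.3 and 9.37 times MIR398b in B73 anthers and 21.0 and 19.0 times in ms28 anthers. In B73 germ cells the ratio was 35.4 and 8.48. MIR398a was 2.54 and 0.824 times MIR528a in B73 anthers and 1.43 and 3.48 times in ms28 anthers. It was 6.17 and 1.93 times MIR528a in B73 germ cells and 4.75 and 4.07 times in ms28 germ cells. These ratios were chosen after the values were seen and were not tested. How often ratios of other pairs of loci separate the groups was not computed.

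**Figure D4:**
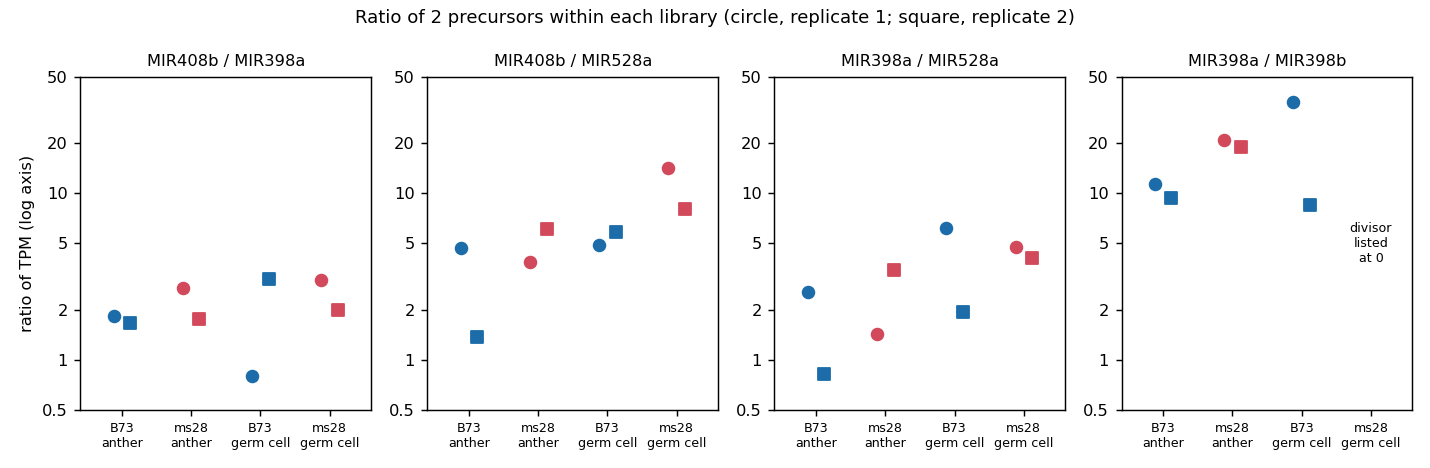
Ratio of the TPM of 2 precursors within each library (y axis, log scale), grouped by line and tissue, with circles for replicate 1 and squares for replicate 2. MIR398a over MIR398b is 9.37 to 11.3 in B73 anthers and 19.0 to 21.0 in ms28 anthers, and has no value in ms28 germ cells, where MIR398b is listed at 0.

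Across the 8 prophase I libraries, the 4 copper-linked loci followed each other on the log2(TPM + 1) scale, with Pearson correlations between 0.90 and 0.95 for their 6 pairs. MIR395c had correlations between 0.07 and 0.32 with them. These points are 4 groups of 2 libraries and include the tissue difference, and correlations within a tissue were not computed. The miRNA loci most like MIR398a were MIR398b (r = 0.95), MIR408b (0.93) and MIR528a (0.93). Those most like MIR528a were MIR398b (0.94), MIR398a (0.93) and MIR408b (0.91). Those most like MIR408b were MIR398a (0.93), MIR167g (0.91) and MIR528a (0.91). Among gene models, Zm00001d025977 and Zm00001d025170 were nearest to MIR398a (r = 0.99 each). Correlations of at least 0.9 were common: 6.33% of the other 20891 features reached that with MIR398a, 2.34% with MIR408b and 7.12% with MIR528a.

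The loci listed are few of those annotated. The RefSeq gene table used for names (Zm-B73-REFERENCE-NAM-5.0, another build than that of the files) holds 15 MIR395 loci and 2 loci each of MIR397, MIR398, MIR408 and MIR528. The prophase I tables list 1 locus of each family, except MIR398 with both. MIR395c stands there in an unbroken run of 4 MIR395 loci, with MIR395k, MIR395l and MIR395m as the others. Other loci of these families were not analysed here. Where copies are nearly identical, shared reads leave the level of a single locus uncertain, and for MIR395c its neighbours on the same stretch add to this. Strand is not kept by this library type, and reads of a locus and of an antisense partner cannot be told apart.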

How the data were processed

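RNA-seq libraries were made with a Smart-seq type method with template switching, PCR and tagmentation, per the labels' protocols. Per the submitters' processing notes, the build was B73 RefGen_v4 and the tools were HISAT2 2.2.1, featureCounts 2.0.1, Trimmomatic 0.33, DESeq2 and Cufflinks, and no source used here gives their roles. The deposited prophase I tables hold values read as TPM, because their columns sum to between 99.1 and 99.4% of the total that TPM add up to by definition; their headers name genotype and replicate only. WT in the headers was read as B73, and tissue and stage were taken from each table's name. The deposited premeiotic table was not used.

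A limma-trend model (limma 3.58.1, R 4.3.3) of log2(TPM + 1) covered all 8 prophase I libraries, with a coefficient for each group. It used 20892 of 22402 shared features, those that reached 1 TPM in 2 or more libraries. All 5 shared loci passed. MIR398b passed through the anther libraries, since in germ cells only B73 replicate 2, at 2.02 TPM, reached 1 TPM. It did not pass in the germ cell table alone and was not tested there. Intervals are 95% and come from that fit. MIR397b was to be tested in the anther table alone. Every locus of the rule is named. For loci with a group mean of at least 10 TPM, the 3 miRNA loci and 2 gene models with the highest Pearson correlation were looked up; of the gene models, those of MIR398a are printed. The fit was also run on simulated data with a spread common to all features and changes planted in the anther comparison alone. No result here rests on that run. The loci, lists and tests were chosen with earlier results of these data known. Alternatives were a pseudocount of 0.1, no filter, centring, quantile normalization, each tissue's table alone, leaving out each library and a replicate block. Lists of 25 cell type markers and 12 pathway genes or gene groups matched 0 features. The planned ranking against premeiotic anthers could not be made. Python 3.11.15 with matplotlib 3.10.9, pandas 2.3.3 and numpy 2.4.6 was used for tables and figures.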

Additional observations from a re-analysis of the deposited data

How the results depend on the processing

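Between the tissues, calls over all features ran from 13367 to 14508 in B73 (main 14247) when all libraries were kept. In ms28 they ran from 11510 to 12337 (main 11830). Beside these, the count of called loci stayed at 4 under centring, quantile normalization, no filter and the replicate block in both lines. With a pseudocount of 0.1 the count of called loci was 5 in B73 and 4 in ms28. For ms28 against B73 in germ cells it went from 0 to 1 with a pseudocount of 0.1 (MIR398b) and to 1 in the germ cell table alone (MIR395c), and ran from 0 to 2 in the joint fit when 1 library was left out. In the germ cell table alone it went from 1 to 2 with centred libraries (MIR395c and MIR398a), and it also moved when 1 library was left out. MIR395c was not among the loci tested there without either ms28 library. The share of all features called was not computed for these variants of that fit, so their counts cannot be set beside it. A group left with 1 library is assumed to vary like the others. For the interaction it ran from 0 to 1, and in anthers it stayed at 0 in every alternative run. The cause was not tested.

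Differences between the lines in anthers changed sign with centring for MIR395c (0.52) and MIR528a (0.065) and with quantile normalization for MIR395c (0.48). Leaving out 1 library turned the sign of differences that were not called. In anthers the range was -0.86 to 0.68 for MIR395c, -0.63 to 0.76 for MIR398a, -0.40 to 1.15 for MIR408b and -1.23 to 0.15 for MIR528a. For MIR408b in germ cells it was -1.22 to 0.91, in the joint fit and in the germ cell table alone. For the interaction it was -0.83 to 0.28 for MIR398b, -1.59 to 0.54 for MIR408b and -1.16 to 0.44 for MIR528a, and for MIR395c between the tissues in ms28 it was -0.052 to 0.77.

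The replicate numbers do not pair the libraries by any label. Over features, the correlation of the deviations of same-numbered libraries ran from -0.08 to 0.14 between groups. With the replicate number as a block, the calls of the 5 loci in the joint fit were as without it (4 between the tissues in each line and 0 elsewhere). In the germ cell table alone MIR395c stayed called with the block. Over all features, the block moved the calls from 1633 to 1046 in anthers and from 3009 to 1870 in the interaction. Calls over all features ran from 59 to 4241 in anthers (main 1633), from 293 to 4092 in germ cells (main 2995) and from 0 to 4475 in the interaction (main 3009). The share of them that was higher went from 6.49 to 60.3% in anthers, from 63.1 to 48.2% in germ cells and from 96.4 to 41.4% in the interaction when libraries were centred. Depth is unknown, so levels near 1 TPM (MIR397b, MIR395c and MIR398b in germ cells) carry an error that the TPM do not show.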
